A study of Mus musculus with 14 samples.

Results

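The immunoglobulin loci are the 3 stretches of the mouse genome from which B cells assemble their antibody genes, and peaks of open chromatin across them were described here. A peak of the merged list was counted as a member when its centre lay in mm10 chr6:67555636-70726754 (the kappa light chain locus), chr12:113256204-116009954 (the heavy chain locus) or chr16:19061752-19260844 (the lambda light chain locus). Of 92842 peaks in the list, 239 (0.257%) met this rule, 120 in the kappa, 109 in the heavy and 10 in the lambda locus. Open chromatin was mapped by ATAC-seq, in which the transposase Tn5 cuts accessible DNA and leaves sequencing adapters in it. Per the labels, 7 cell types were sorted by FACS from adult wild-type C57BL/6 mice of 8 to 12 weeks, with 2 libraries each and 14 in all: multipotent progenitors (MPP), the common progenitors of myeloid (CMP) and of lymphoid (CLP) cells, those of granulocytes and macrophages (GMP) and of megakaryocytes and red cells (MEP), and pro-B cells (ProB), all from bone marrow, and pro-T cells (ProT) from thymus. No genotype or treatment separates the groups, and whether both libraries of one cell type stem from separate animals is not stated. The list carries no value per library or cell type, so no member can be given to a cell type, no replicate spread can be had, and all comparisons are of stretches of the genome.

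The kappa and heavy loci hold an array of V segments at one end and J and C segments at the other, with D segments between them in heavy. The lambda locus has few V segments, which alternate with units of J and C segments. The RAG recombinase joins one segment of each kind by cutting at recombination signal sequences, which flank the segments and consist of a conserved heptamer, a spacer and a nonamer. The heavy locus is known to recombine in pro-B cells, before the light chain loci, and the heavy chain C genes lie in a row from Ighm, which encodes the chain of IgM, to Igha, which encodes that of IgA. Promoters of V segments are known to carry the octamer, a site for Oct factors, and enhancers lie near the J and C segments.

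Sequences are shown where a member overlaps a recombination signal, a promoter window or a miRNA hairpin. Not all of the letters shown lie inside a member, and the overlap is given with each. Whole member sequences were not analysed here. The first is the stretch that abuts the 3′ edge of Ighv1-23, a V gene of the heavy locus on the minus strand, printed with its heptamer and the following nonamer position in capitals. It was read from a RefSeq (GRCm38.p6) promoter window and chosen after the heptamer had been found there.
Ighv1-23 signal, chr12:114764412-114764449, minus strand: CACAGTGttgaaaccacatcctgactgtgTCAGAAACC
The heptamer starts directly beside the segment, and the nonamer position was taken as the best match to the common form at spacers of 10 to 30 bases, which gave a spacer of 22 bases and 7 of 9 matching bases. The member chr12:114764400-114764898 covers all 294 bases of the segment and 50 bases beyond this edge, so that it holds the whole signal.

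RefSeq promoter windows run from 250 bases before to 50 after a gene's start. Within the loci 12 such windows were found, all of genes other than antibody gene segments, and 5 of them overlap a member. In the 3 shown, capitals mark the octamer ATTTGCAT, the E box CAGGTG (a site for E2A factors) and the EBF motif CCCNNGGG, each searched on both strands.
LOC108169192, chr6:68880650-68880949, minus strand: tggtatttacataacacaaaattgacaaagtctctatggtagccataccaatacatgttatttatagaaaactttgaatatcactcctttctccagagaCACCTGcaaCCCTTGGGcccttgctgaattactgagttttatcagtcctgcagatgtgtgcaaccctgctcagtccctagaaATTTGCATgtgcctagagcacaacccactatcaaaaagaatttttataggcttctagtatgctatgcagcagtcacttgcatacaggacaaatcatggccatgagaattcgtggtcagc
Gm46961, chr6:70718827-70719126, minus strand: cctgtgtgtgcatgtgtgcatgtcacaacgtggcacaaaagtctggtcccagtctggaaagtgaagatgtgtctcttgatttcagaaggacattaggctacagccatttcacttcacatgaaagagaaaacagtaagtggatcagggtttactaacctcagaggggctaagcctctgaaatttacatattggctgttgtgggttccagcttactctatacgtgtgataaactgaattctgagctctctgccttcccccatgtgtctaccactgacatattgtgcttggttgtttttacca
Gm35545, chr16:19218252-19218551, plus strand: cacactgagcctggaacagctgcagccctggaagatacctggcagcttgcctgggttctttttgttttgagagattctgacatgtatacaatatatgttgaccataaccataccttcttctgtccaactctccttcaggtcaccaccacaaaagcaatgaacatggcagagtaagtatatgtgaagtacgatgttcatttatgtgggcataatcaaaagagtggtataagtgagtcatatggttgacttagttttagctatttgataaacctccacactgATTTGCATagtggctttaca
The LOC108169192 window lies in the kappa V array, 286 of its bases are in a member, and it holds an octamer at position 182 from its 5′ end, an E box and an EBF match. Gm46961 lies between the V and J segments of the kappa locus, entirely within a member, and none of the motifs searched is in its letters. Gm35545 lies in the lambda locus, entirely within a member, and its octamer is at position 281, after the start site. Of the remaining windows that overlap a member, that of Gm40899 holds the heptamer CACAGTG shown beside Ighv1-23, and that of Gm30948, also in the heavy V array, holds a heptamer and an E box. Windows without a member held such motifs too. That of Gm40900 has a heptamer and E boxes, and that of Gm30996 an E box. Among all 32851 mouse promoter windows of this length, 1.74% hold the octamer, 6.81% the heptamer, 20.2% the E box and 13.7% the EBF motif. No window in the loci held the kappa B site (0.155% of all windows) or the CTCF core (2.43%). A match is a stretch of letters and was not tested for binding.

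The heavy V array also contains the miRNA genes Mir7094-1 and Mir7094-2, and a member overlaps each hairpin. Their mature sequences from RefSeq are shown with the seed, bases 2 to 8, in capitals.
mmu-miR-7094-3p: uACUCUGCuguucucuccaca
mmu-miR-7094-1-5p: uCUGAAGAggauacagggucuga
mmu-miR-7094b-2-5p: uCUGGAGAggauacagggucuga
Both copies give the same 3p miRNA. The hairpins of 60 bases differ by A5G, counted from the 5′ end of the hairpin of Mir7094-1, and this base lies in the seed of the 5p miRNA. Mir7094-1 (chr12:114469407-114469466, minus strand) is 36 bp from the V pseudogene Ighv1-2 and shares 5 bp with its member. Mir7094-2 (chr12:114513635-114513694, minus strand) is 12 bp from the V gene Ighv1-5 and shares 46 bp. Of the mature sequences of Mir7094-1, 4 bp of the 3p and 0 bp of the 5p lie in its member. For Mir7094-2, all 21 bp of the 3p and 9 bp of the 5p do.

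Peaks lay at densities whose intervals include that of the rest of the chromosome in each locus. The kappa locus held 37.8 peaks per Mb (95% interval 31.4 to 45.2), against 37.9 on the rest of chromosome 6. Its flanks of equal length held 50.5 on the V side and 63.4 on the C side. The heavy locus held 39.6 peaks per Mb (32.5 to 47.7), against 33.3 on the rest of chromosome 12. Its flanks held 47.2 on the V side and 98.0 on the C side. In the lambda locus the 10 members gave 50.2 peaks per Mb (24.1 to 92.4), against 35.5 on the rest of chromosome 16. Its flanks held 5.02 on the V side (1 peak) and 45.2 on the C side. The T cell receptor loci, which recombine in T cell precursors, held 22.8 peaks per Mb at alpha and delta (41 peaks), 67.5 at beta (45 peaks) and 63.1 at gamma (11 peaks). All intervals here are exact and cover counting error only, and no test was made between loci.

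**Figure D1:**
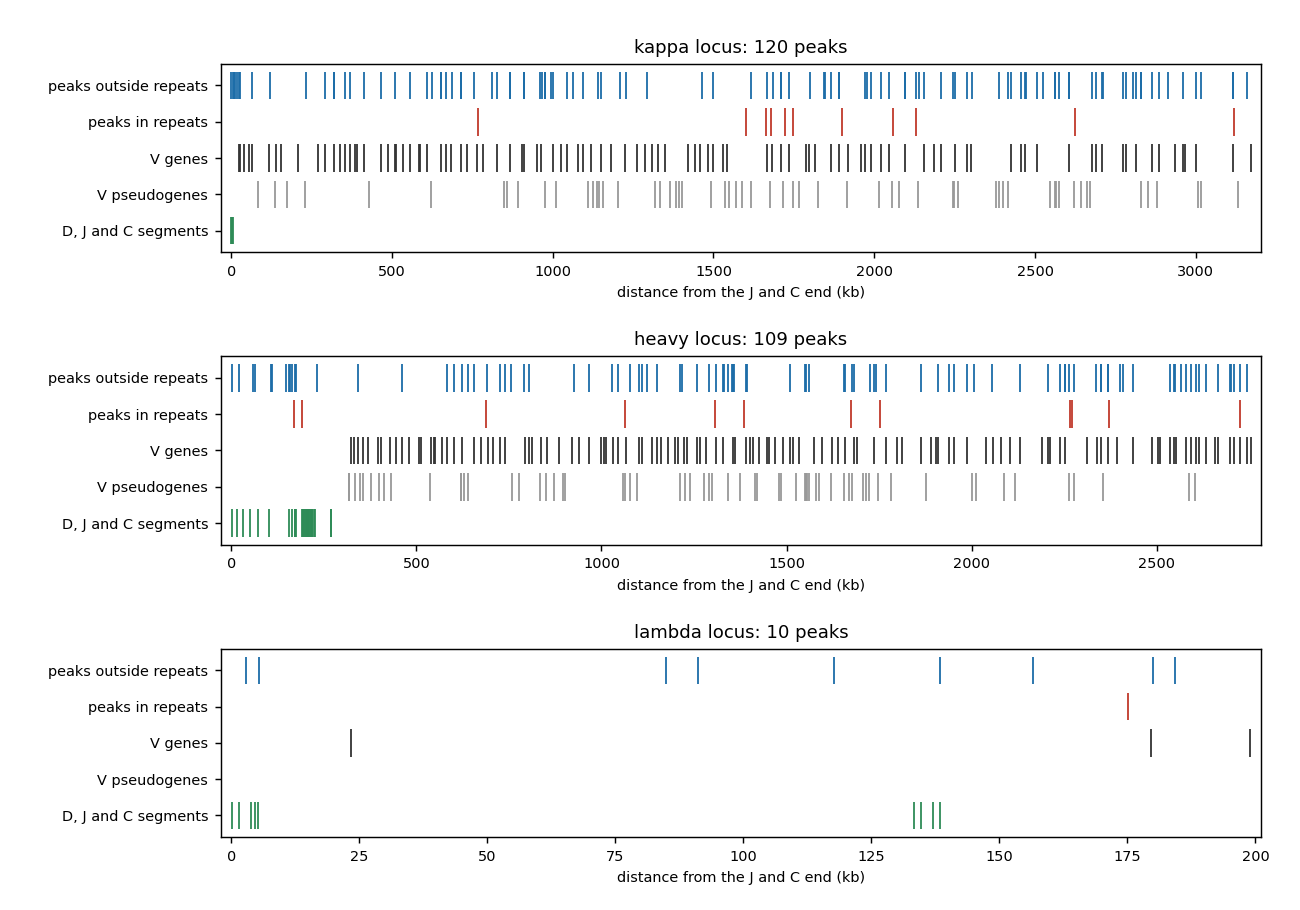
Position of every member along the kappa, heavy and lambda loci, as distance from the J and C end in kb, in rows for peaks outside and in repeats, V genes, V pseudogenes, and D, J and C segments. Peaks run along the kappa and heavy V arrays with gaps, 10 of the 11 kappa peaks in repeats lie on the V side of the midpoint, and short stretches with many segments have no peak.

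Most members lay close to a V segment. RefSeq places 349 V segments in the loci, 162 in kappa, 184 in heavy and 3 in lambda, typed as genes or as pseudogenes. Of the kappa members, 83 of 120 (69.2%, 60.1 to 77.3) had their centre within 1 kb of a V segment, while the stretches that close to one make up 12.8% of the locus. Of the heavy members, 71 of 109 (65.1%, 55.4 to 74.0) did so, against 15.3% of the length. In lambda 1 of 10 members did, against 3.19% of the length. Over all loci 155 of 239 members (64.9%) lay that close, most of them in the kappa and heavy V arrays.

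Seen from the segments, fewer than 1 V segment in 2 had a member within 1 kb in either large locus. The share was 69 of 162 (42.6%, 34.9 to 50.6) in kappa and 66 of 184 (35.9%, 28.9 to 43.3) in heavy. The share was higher among V genes than among V pseudogenes. In kappa 58 of 102 genes (56.9%, 46.7 to 66.6) and 11 of 60 pseudogenes (18.3%, 9.52 to 30.4) did, and these intervals do not overlap. In heavy 53 of 121 genes (43.8%, 34.8 to 53.1) and 13 of 63 pseudogenes (20.6%, 11.5 to 32.7) did, and these intervals do not overlap either. Neighbouring segments share their surroundings, so segments are not independent and no test was made. The list does not say how reads that match several near-identical V copies were placed, so the absence of a member at a given V segment is uncertain. In lambda, of the 3 V genes only Iglv3 had a member within 1 kb, and Iglv1 and Iglv2 had none.

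At the T cell receptor loci the same measure gave 16 of 119 V genes (13.4%, 7.88 to 20.9) at alpha and delta, 16 of 22 (72.7%, 49.8 to 89.3) at beta and 4 of 7 (57.1%, 18.4 to 90.1) at gamma. Kappa and heavy V genes thus sat between alpha and delta below and beta above, by value. Of the T cell receptor V pseudogenes, 1 of 17 at alpha and delta and 1 of 13 at beta had one.

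V families, which group segments of similar sequence, differed in their share. In kappa, 9 of 13 Igkv1 segments (69.2%, 38.6 to 90.9) and 6 of 9 Igkv6 segments (66.7%, 29.9 to 92.5) had a member within 1 kb, and so did all 3 of Igkv10. Igkv13 was lowest among families of 9 or more, with 1 of 19 (5.26%, 0.133 to 26.0), and 2 of its 19 segments are genes. Igkv4, the family with the most segments in kappa, had 12 of 33 (36.4%, 20.4 to 54.9), 10 of them among its 28 genes. In heavy, Ighv1 had 42 of 92 (45.7%, 35.2 to 56.4), 34 of them among 60 genes. Ighv5, most of whose segments lie near the D end, had 4 of 21 (19.0%, 5.45 to 41.9). These 4 include the pseudogene Ighv5-21, which lies farther out in the V array. Ighv8 had 4 of 16, Ighv2 2 of 11 and Ighv3 0 of 8, which allows up to 36.9%. Most of these intervals overlap, and family goes with position and with the share of pseudogenes, whose parts in these values cannot be told apart here.

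Along the arrays, V segments beyond the midpoint, far from J and C, had a member more often by count. In kappa 40 of 73 segments in the distal part of the V array, beyond its midpoint, (54.8%, 42.7 to 66.5) had one, against 29 of 89 in the proximal part (32.6%, 23.0 to 43.3). Among V genes alone the shares were 31 of 41 (75.6%, 59.7 to 87.6) and 27 of 61 (44.3%, 31.5 to 57.6). In heavy 37 of 77 distal segments (48.1%, 36.5 to 59.7) had one, against 29 of 107 proximal segments (27.1%, 19.0 to 36.6). Among heavy V genes it was 30 of 52 (57.7%, 43.2 to 71.3) and 23 of 69 (33.3%, 22.4 to 45.7). The distal and proximal intervals overlap, except those of the kappa V genes, and no test was made.

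With each locus cut into 10 bins of equal length from the J and C end, kappa had between 10 and 18 members in every bin but the fifth, which had 3. That bin holds 21 V segments, and 1 of them had a member within 1 kb. The heavy locus varied more, with 15 members in the first bin, 2 in the second and between 6 and 17 in the others. The second bin of heavy holds 25 V segments, of which 2 had a member within 1 kb. The outermost 2 bins on the V side had 9 of 13 and 12 of 20.

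**Figure D2:**
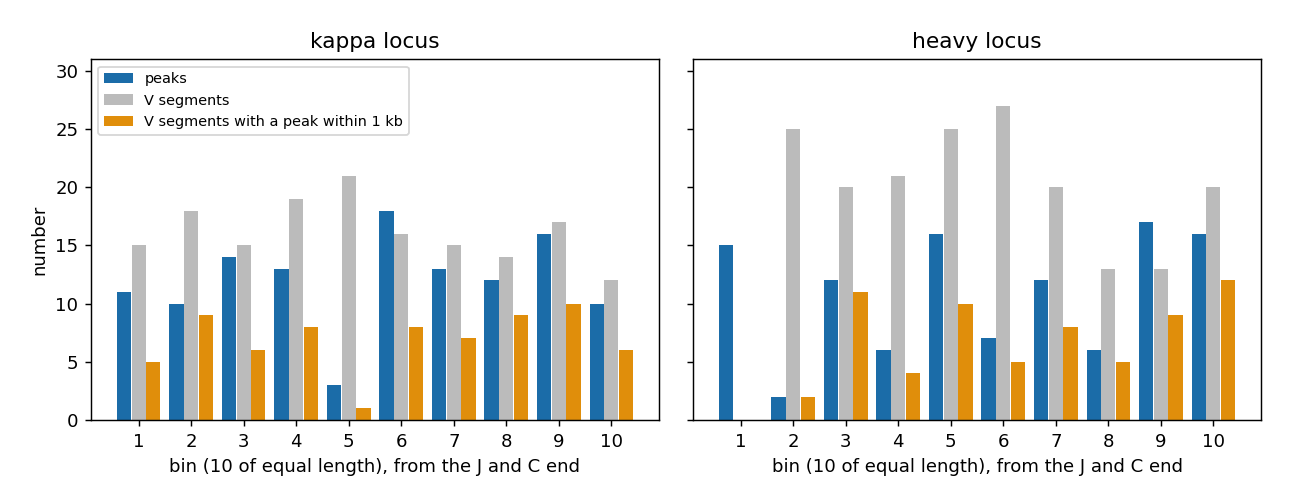
Number of peaks, of V segments, and of V segments with a member centre within 1 kb in each of 10 bins of equal length of the kappa and heavy loci, counted from the J and C end. The fifth bin of kappa has 3 peaks beside 21 V segments, and the second bin of heavy has 2 peaks beside 25.

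Member centres sat near the edges of the kappa V segments and on the 3′ side of the heavy ones. In kappa 79 of 83 (95.2%) had their centre within 200 bp of an edge, with a median of 79 bp to the nearer edge. The low-coordinate edge was nearer for 50 and the high-coordinate edge for 33. Kappa V segments are known to lie in both orientations and the table used gives no strand, so these edges were not split into promoter and signal sides. In heavy, where segments lie on the minus strand, the 3′ edge, which carries the recombination signal, was nearer for 59 of 71 members and the 5′ edge for 12. Of all 71, 60 were within 200 bp of the 3′ edge and 17 within 200 bp of the 5′ edge, with 61 near either, so most of the 17 count at both. The median centre was 54 bp inside the 3′ edge. The heavy V entries are short, with a median of 294 bp against 525.5 bp in kappa. A peak of 499 bp can thus cover a whole heavy entry with both edges. How far entry length bears on the difference between kappa and heavy was not tested.

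**Figure D3:**
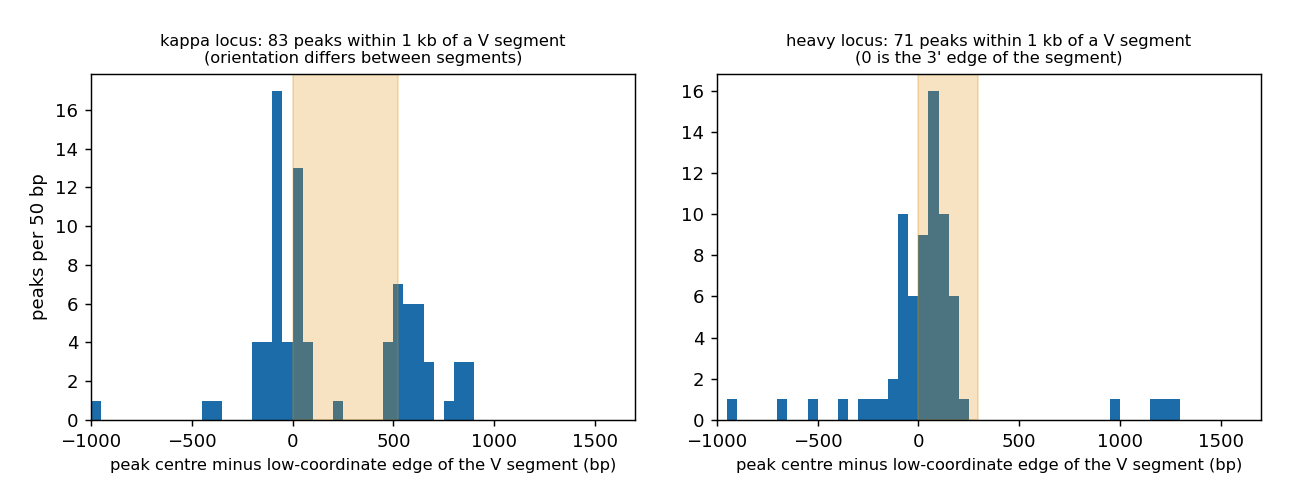
Member centres within 1 kb of a V segment, in bins of 50 bp, by distance from the low-coordinate edge of the segment in kappa (83 peaks) and heavy (71 peaks). The shaded band is the median segment length. Kappa centres gather at both edges and leave the middle nearly empty, and heavy centres form one group around the 3′ edge.

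Some kappa V segments had a member at each edge. Of 15 kappa V segments with more than 1 member within 1 kb, 12 genes and 3 pseudogenes, all 15 had one within 200 bp of each edge, with a median of 660 bp between centres and a range of 533 to 1005 bp. Igkv1-135 had centres 902 bp apart, Igkv1-117 1005 bp apart and Igkv12-89 533 bp apart. In heavy 5 V segments had more than 1 member, and none of them had separate centres within 200 bp of each edge. Every peak is 499 bp wide, no centres in the heavy locus were closer than 526 bp, and the median heavy V entry is 294 bp long. Whether this bears on the number of such pairs was not tested.

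A member centre lay inside 21 kappa V segments (19 genes and 2 pseudogenes) and 42 heavy V segments (35 genes and 7 pseudogenes). Ighv1 gave 36 of the heavy ones, among them Ighv1-2, Ighv1-5, Ighv1-23 and Ighv1-85. The others were Ighv2-6, Ighv7-4, Ighv9-4, Ighv12-3, Ighv13-2 and Ighv14-3. In kappa Igkv4 gave 8, Igkv6 and Igkv12 3 each, and Igkv8 and Igkv15 2 each.

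Among windows of 50 kb, the one at the J and C end held the most members in kappa, 7 between 70698105 and 70726133. In the 10 bins of equal length, the end bin held 11 members, against 18 in the sixth. From the last V segment, Igkv3-1, to the end of Igkc, which encodes the kappa constant domain, 5 members in 22.6 kb gave 221 peaks per Mb (71.9 to 517), against 36.5 (30.2 to 43.8) in the V array. Between Igkv3-1 and Igkj1 there were 4, the region where the elements Cer and Sis, known to steer V choice, lie. They were chr6:70709415-70709913, chr6:70714232-70714730, chr6:70718791-70719289 and chr6:70722259-70722757, the last with its centre 54 bp from Igkj1. The J cluster itself held no member centre. In the intron between J and C, which carries the intronic kappa enhancer, the member chr6:70725635-70726133 was 551 bp from Igkc and is the member nearest to the C end. At the V end the outermost member, chr6:67565679-67566177, lies at the start of 4930515G16Rik, 229 bp from it, and is the only member annotated as a promoter.

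Peaks went on beyond the kappa C end. Within 50 kb there were 9, the nearest with its centre 0.680 kb past Igkc and the next at 2.60, 4.27 and 8.99 kb, on the side where the 3′ kappa enhancers are known to lie. Beyond the V end there were 5 within 50 kb, and the nearest, 112 bp outside, overlaps the outermost V segment, Igkv2-137.

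The heavy locus from the C end at Igha to the first V segment, D segments included, held 15 members in 317 kb, or 47.4 per Mb (26.5 to 78.1), against 38.6 (31.2 to 47.2) in its V array. The densest 50 kb window held 8 members, between 113402709 and 113446550, from downstream of Ighd (which encodes the chain of IgD) across Ighm to the J and D segments. Between Ighm and the J segments lay 2. The first, chr12:113425318-113425816, is in a CAGCT simple repeat 2837 bp upstream of Ighm, where the mu switch region is known to be. The second, chr12:113427280-113427778, is 4799 bp upstream of Ighm and 985 bp from Ighj4, in the intron of the enhancer Eμ. Between the J and D clusters lay chr12:113430230-113430728, 49 bp from Ighd4-1, the D segment nearest to J.

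The D cluster of 96.3 kb held 2 members, and 1 of its 20 D segments, Ighd4-1, had a member within 1 kb. One D cluster member, chr12:113446052-113446550, is in an MTD repeat 1913 bp from Ighd3-2. The other, chr12:113487655-113488153, is 5712 bp from Ighd1-1 on the V side, where the control region IGCR1 is known to lie, and 1661 bp from the start of Adam6b. The 46.1 kb from the last D to the first V segment held none, which allows up to 80.0 peaks per Mb.

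Among the heavy C genes, Ighd had 2 member centres inside it, Ighm 1 and Igha 1. Upstream of Ighg3, the side of its switch region, members lay at 1.33, 5.37 and 41.7 kb, the last closer to Ighd, at 4577 bp. Upstream of Ighg2b they lay at 6.88 and 13.4 kb, the last closer to Ighg1, at 5247 bp, and upstream of Ighe at 4.81 kb. The stretches upstream of Igha, Ighg2c and Ighg1, up to the next C gene, held none. The outermost members were chr12:113257127-113257625, inside Igha, and chr12:115999864-116000362, inside Ighv1-85. Beyond the C end 10 peaks lay within 50 kb, the nearest at 11.3 kb, on the side of the 3′ regulatory region, and 5 lay beyond the V end, the nearest at 0.966 kb.

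All 10 lambda members can be placed against its segments, which are taken as lying on the minus strand. Next to J segments lay chr16:19066870-19067368, 41 bp upstream of Iglj3, and chr16:19200003-19200501, 17 bp upstream of Iglj2. The lowest member, chr16:19064448-19064946, was 668 bp downstream of Iglc3. Downstream of Iglc4 lay chr16:19146416-19146914, chr16:19152668-19153166 and chr16:19179267-19179765, the last of them at 15.5 kb, in the stretch where the enhancer of the Iglc2 and Iglc4 unit is known to lie. Around Iglv3 lay chr16:19241563-19242061, 133 bp upstream, chr16:19236673-19237171, 4.29 kb downstream in an RMER17B repeat, and chr16:19245737-19246235, 4.31 kb upstream and outermost on the V side. The remaining member, chr16:19218153-19218651, is the one over the Gm35545 start. The densest 50 kb window held 5, from Iglj2 to beyond Iglv3. Within 50 kb outside, 2 peaks lay beyond the C end at 8.83 and 34.3 kb, and 1 beyond the V end at 2.54 kb.

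By the median gap, neighbouring members were farther apart than neighbouring peaks of the list as a whole. A longer median gap is not a lower number of peaks per Mb. The intervals of the latter included the rest of the chromosome in each locus. The median distance between centres was 18201 bp in kappa, 15322 bp in heavy and 18150 bp in lambda, against 8757 bp over all peaks. At the T cell receptor loci it was 27186 bp at alpha and delta, 5208 bp at beta and 7016 bp at gamma. The flanks of kappa and heavy had 5456 to 11561 bp, and the lambda flank on the C side 19344 bp. Close neighbours were more frequent in kappa, with 14 of 119 gaps under 1 kb, than in heavy with 3 of 108. Gaps over 50 kb numbered 16 in kappa, 13 in heavy and 1 in lambda.

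The longest gaps of kappa and heavy lay within the V arrays. Outside its V array the kappa locus is 22.6 kb long, so gaps as long as those below could not lie elsewhere there. How reads matching several near-identical V copies were placed is not known, so the absence of peaks in these gaps is uncertain. In kappa the longest, 171 kb, ran from chr6:69261037-69261535, near Igkv4-70, to chr6:69432220-69432718, near Igkv4-59, over 12 V segments, 6 of them genes. The next ran 113 kb from chr6:70493804-70494302 to chr6:70607088-70607586, near Igkv3-7, and 102 kb from chr6:69124809-69125307 to chr6:69226611-69227109, at Igkv4-72, each over 6 V segments. The first and the last of these lie close together in the middle of the locus, where the fifth bin had 3 members. In heavy, gaps of 119 kb and 122 kb follow each other near the D end, from chr12:113597139-113597637, beside Ighv5-4, to chr12:113716467-113716965, in Ighv2-6, and on to chr12:113838217-113838715, beside Ighv5-16. Counted between centres they span 13 V segments, Ighv5-4 with its member included, and 8 V segments, so that Ighv2-6 stood alone between them. The longest heavy gap, 123 kb, ran from chr12:114059631-114060129, in Ighv14-3, to chr12:114182516-114183014, near Ighv14-4, over 10 V segments. In lambda the longest, 79.5 kb, ran from the member at Iglj3 to chr16:19146416-19146914 and spans Iglv1. The others were 26.6 and 20.7 kb.

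Few members lay in repeats. The annotation put 24 of 239 (10.0%, 6.54 to 14.6) in a repeat, against 16.0% of the whole list. There were 11 in kappa (9.17%), 12 in heavy (11.0%) and 1 in lambda. Members close to V segments were rarely in one, 5 of 155 (3.23%), against 19 of 84 members elsewhere (22.6%). In kappa 10 of the 11 were on the V side of the midpoint of the locus, among 69 members there, and 1 was among 51 on the J and C side. In heavy it was 7 of 58 on the V side and 5 of 51 on the J and C side.

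By class, 12 members (5.02%) lay in LTR elements, against 6.59% of the list, and 9 (3.77%) in LINEs, all of the L1 family, against 3.29%. No member was in a SINE, while 4.14% of the list was. Among the LTR members 8 were ERVK and 4 ERVL-MaLR. ORR1A2, an ERVL-MaLR LTR, was the only element with more than 1 member. Its 3 were chr6:69004653-69005151, chr6:69046697-69047195 and chr6:69063491-69063989, near Igkv13-80-1, Igkv4-79 and Igkv4-78.

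The nearest-gene names in the list gave no antibody gene segment. The 239 members carried 12 names, and 0 of them are one of the 396 V, D, J or C segments. In the whole list of 92842 peaks, 0 carry such a name, also where a centre lies inside a segment. The names, and the distances and classes given below, thus depend on an annotation that names no segment. In kappa 61 members (50.8%) were named for Rprl1, an RNase P RNA gene amid the V array, 36 for 4930515G16Rik, a transcribed pseudogene at the V end, and 23 for Rpia, a sugar phosphate isomerase gene beyond Igkc. In heavy 33 were named for Mir6388, a miRNA gene 3538 bp from Ighv1-70 that no member overlaps, 27 for Mir7094-2 and 15 for Mir7094-1, and 11 each for Adam6a and Adam6b, genes known for their part in sperm function. A further 8 were named for Zfp386, a zinc finger gene beyond the V end, and 4 for Tmem121, a transmembrane protein gene beyond Igha. In lambda 8 were named for Olfr164, an odorant receptor gene, and 2 for Hira, a histone chaperone gene. Genes inside the loci gave 7 of the names and 194 members, and genes outside gave 5 names and 45 members.

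Distances to these starts, none of them the start of a segment, were long. The median was 444552 bp in kappa, 136860 bp in heavy and 96857 bp in lambda, against 18164 bp over the list, and the farthest member was 871808 bp from 4930515G16Rik, the gene it was named for. Over 100 kb lay 90.0% of kappa, 63.3% of heavy and 50% of lambda members, against 12.4% of the list. The list classed 236 of 239 members (98.7%, 96.4 to 99.7) as intergenic, against 39.3% of all peaks, including every member with its centre inside a V segment except those at Ighv1-2 and Ighv1-5. Those 2 were classed as transcript ends, of the Mir7094 genes.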

How the data were processed

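The deposited master list holds 92842 peaks of all 14 libraries together. Its annotation was made by the authors with annotatePeaks and mm10 (per the file header). HOMER 4.10.2 is named in the submitters' processing notes. Not given in the sources used here are the aligner, peak caller, threshold, merging, and treatment of reads matching several places. The deposited peak score, 0 throughout, was left unused. Every peak is 499 bp wide, depth is unknown, and 0 columns of other samples were met.

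Members, lists and comparisons were chosen with earlier results of these data known. Segments, pseudogene types and positions came from a RefSeq table (GRCm38.p6, the mm10 primary assembly) without strand. Heavy and lambda segments were taken as minus strand. No genome was used, so motifs were searched in RefSeq promoter windows instead of member sequences. Peaks named individually were the outermost members, those beside the 3 longest gaps, those in the intervals holding known control elements, those in the densest 50 kb windows and all lambda members. Those in ORR1A2 repeats, overlapping sequences shown, and single V segments or families were chosen after their values were seen. Distances run from a peak's centre to the nearer edge. Intervals are exact at 95% (Clopper-Pearson for shares, Poisson for counts) and cover counting error only. No p-value was computed. The counting was tested on simulated data. Python 3.11.15, pandas 2.3.3, numpy 2.4.6, scipy 1.17.1 and matplotlib 3.10.9 were used.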

Additional observations from a re-analysis of the deposited data

How the results depend on the processing

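Of 33 alternative values for 18 results, 31 moved by less than the 95% interval of the main value or by under 1.5 times for a count. The other 2 were the shares of V segments with a member within 1 kb when segments typed as pseudogenes are left out, 56.9% in kappa (42.6% with them) and 43.8% in heavy (35.9% with them). Some of the 31 had little or no room to move. The interval between the outermost segments is the rule's own interval in each locus. Gaps between edges are those between centres less the peak width of 499 bp. No lambda V segment is typed as a pseudogene. No kappa or lambda member is in a simple or low-complexity repeat. Widening the loci by 10 kb gave 125, 110 and 12 members in kappa, heavy and lambda. Distances of 500 bp and 2 kb gave kappa shares of 41.4% and 43.2%, and heavy shares of 34.8% and 37.0%. At 2 kb the intervals of heavy V genes and pseudogenes overlap. The end bin at J and C, relative to an even spread, was 0.917 with 10 bins and 1.5 with 20 bins for kappa, 1.38 and 1.10 for heavy, and 2 and 4 for lambda, so for kappa its direction depends on the bin width. No paired analysis was possible because the merged list has no value per library, and for the same reason no replicate could be left out.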
